A study of Mus musculus with 2 samples.

Results

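Among cells sorted from mouse tail for Sox1-GFP, 125 of 1964 cells carried molecules of at least 2 of 6 genes that mark cerebrospinal fluid-contacting neurons, namely Pkd2l1, Tal1, Gata2, Gata3, Pkd1l2 and Slc32a1. These 125 cells, called CSF-contacting neuron-like cells here, were 6.37% of the tail cells (95% interval 5.33 to 7.54) and were set against the other 1839 tail cells and against 1344 brain cells with molecules of at least 2 of Dlx1, Dlx2, Dlx5 and Dcx. Membership rests on measured counts, so the levels of the 6 genes describe the choice and are not a result. The study sorted GFP-positive cells by flow cytometry from the tail and brain of Sox1-GFP reporter mice, in which GFP stands for activity of the neuroepithelial gene Sox1, and profiled single cells with BD Rhapsody whole-transcriptome libraries. Both groups carried the same Sox1-GFP genotype and received no treatment other than trypsin dissociation and sorting. The tail was postnatal and the brain adult, which the study's methods put at about postnatal days 1 to 5 and about 4 to 6 weeks, without the age of the animals behind each library. There was 1 library per tissue, so no value below has a replicate error. Every interval is an exact 95% interval that covers counting error only.

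Cerebrospinal fluid-contacting neurons sit around the central canal of the spinal cord and send a short, ciliated process into the fluid. They are GABA-releasing neurons marked by the transcription factors Gata2, Gata3 and Tal1, and they carry the channel Pkd2l1, which opens on changes of pH and on mechanical stimuli. They are known for sensing the content and flow of the fluid and for acting on spinal circuits that set posture and locomotion.

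Of the 6 genes that chose the cells, Pkd2l1 lies on chromosome 19 (44147637 to 44192442, minus strand, GRCm38) and encodes the channel. Tal1 (chromosome 4, 115056426 to 115071755, plus strand), Gata2 (chromosome 6, 88193891 to 88207032, plus strand) and Gata3 (chromosome 2, 9857078 to 9890034, minus strand) encode transcription factors that act together in several lineages. Pkd1l2 (chromosome 8, 116995679 to 117082449, minus strand) encodes a relative of polycystin 1, and Slc32a1 (chromosome 2, 158610767 to 158615748, plus strand) the transporter that loads GABA and glycine into vesicles. Because GATA and Tal factors are among the genes found together in these cells, the 250 bases before each annotated start of the genes were searched, in RefSeq sequence on GRCm38.p6, for the core letters of their motifs, GATAA and CAGATG, on either strand. The sequence table held 5 of the 6 genes with 7 starts, and Pkd2l1 was not among them. GATAA occurred before 3 of the 7 starts, against 22.6% of all 32851 starts in the table, and CAGATG before none of the 7, against 14.4% of all. The 3 windows with a match are shown 5′ to 3′ on the strand of their gene, and the capitals mark TTATC, which is GATAA on the other strand.
Slc32a1 (chr2:158610508-158610757, plus strand): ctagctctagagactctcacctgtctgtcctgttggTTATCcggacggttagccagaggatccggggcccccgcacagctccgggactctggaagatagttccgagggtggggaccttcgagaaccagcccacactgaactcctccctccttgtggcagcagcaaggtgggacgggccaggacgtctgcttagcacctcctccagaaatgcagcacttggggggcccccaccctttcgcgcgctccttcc
Tal1 (chr4:115056176-115056425, plus strand): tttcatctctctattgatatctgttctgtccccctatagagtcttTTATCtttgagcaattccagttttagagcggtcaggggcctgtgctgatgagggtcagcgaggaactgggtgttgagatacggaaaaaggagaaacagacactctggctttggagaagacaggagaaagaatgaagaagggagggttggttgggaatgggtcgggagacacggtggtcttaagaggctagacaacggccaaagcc
Pkd1l2 (chr8:117082450-117082699, minus strand): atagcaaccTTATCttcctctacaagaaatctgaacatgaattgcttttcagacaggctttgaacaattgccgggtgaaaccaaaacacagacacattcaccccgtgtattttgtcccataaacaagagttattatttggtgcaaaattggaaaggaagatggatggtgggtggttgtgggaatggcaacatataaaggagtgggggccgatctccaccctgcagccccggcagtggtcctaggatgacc
These matches describe letters in 1 short window per start, and nothing in the count data bears on binding there.

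In the 125 cells, Tal1 was found in 90 cells (72%), Gata2 in 85 (68%), Pkd2l1 in 79 (63.2%), Gata3 in 65 (52%), Slc32a1 in 30 (24%) and Pkd1l2 in 25 (20%). Pkd2l1 gave the most molecules, 431 in the CSF-contacting neuron-like cells against 42 in all other tail cells, with a median of 5 and a range of 1 to 19 in the cells that had any. Tal1 gave 179 molecules against 36, Gata2 154 against 23, and Pkd1l2 42 against 1. The contrast was smaller for Gata3, with 108 molecules against 69, and for Slc32a1, with 35 against 23. There were 31 different combinations of the genes. Tal1 with Gata2 was the most frequent (15 cells), followed by Pkd2l1, Tal1 and Gata2 together (13 cells). Of the 25 cells with Pkd1l2, 24 also had Pkd2l1, which 63.2% of all 125 cells had. The rule asked each of them for a second gene, so this count describes the choice. Among the other tail cells, 1 had Pkd1l2. In the brain library, 0 of 7988 cells met the same rule, which allows a share of up to 0.0376%, and 114 cells had exactly 1 of the genes, 101 of them Slc32a1.

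**Figure D1:**
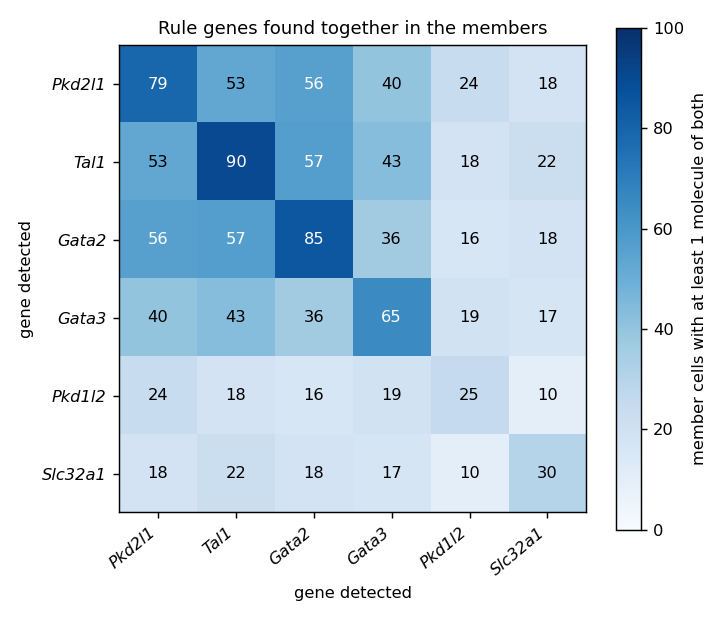
Cells that carry each pair of the 6 genes among the 125 CSF-contacting neuron-like cells, with the number of cells for a single gene on the diagonal; rows and columns are genes and each square gives a count of cells. The pairs Tal1 with Gata2 (57 cells), Pkd2l1 with Gata2 (56 cells) and Pkd2l1 with Tal1 (53 cells) are the most frequent.

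Each gene was also counted in cells that it had not helped to choose. Pkd2l1 was found in 59 of 105 cells with at least 2 of the other 5 genes (56.2%, 46.2 to 65.9) and in 0.807% of the 1736 tail cells with none of them. Gata2 was found in 57.4% against 0.864%, and Tal1 in 62.4% against 1.15%. Gata3 followed with 42.9% against 2.77%, Slc32a1 with 21.5% against 1.03% and Pkd1l2 with 19.4% against 0.058%. The 6 genes were put together with earlier results of these cells known, so these shares describe the choice and support nothing further. With every cell thinned at random to 400 molecules, the shares in cells chosen by the other genes were 35.2% for Pkd2l1, 21.5% for Tal1, 20.2% for Gata2, 14.3% for Gata3, 7.26% for Pkd1l2 and 6.61% for Slc32a1, each above the thinned share in cells with none of the others.

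The CSF-contacting neuron-like cells held 208323 molecules, with a median of 1584 per cell (483 to 4022), 1023 genes and 10.7% mitochondrial molecules, against a median of 1262 molecules in the other tail cells and 731 in the Dlx-bearing brain cells. The median was 1353.5 molecules in cells with 2 of the genes, 1675 with 3, 1781 with 4, 2125 with 5 and 2794 in the 3 cells with all 6, so depth and the number of genes found moved together, and the part of depth in the choice of cells was not tested. Across the libraries, 29 cell barcodes occurred in both, 2 of them in the CSF-contacting neuron-like cells, and 1 of the 125 cells was called a doublet by Scrublet, which called 7 tail cells (0.356%) in all and so found too few to be relied on. Tail and brain also differed in Xist. The share of cells with any of 4 Y-linked genes was alike, but brain cells were shallower (median 696 molecules against 1282.5 in the tail). Per 1000000 molecules all 4 were lower in the tail than in the brain. Ddx3y was at 68.2 against 91.8, Eif2s3y at 28.0 against 66.8, Kdm5d at 12.4 against 18.5 and Uty at 7.81 against 17.6. In the CSF-contacting neuron-like cells 39 had Xist, 17 (13.6%) had a Y-linked gene and none had both, while in the brain library 1 of 7988 cells had Xist and 1141 (14.3%) had a Y-linked gene. Tissue, age, library and the mix of sexes therefore cannot be told apart in any comparison with brain cells.

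Cells with 2 of the genes were just inside the rule, and cells with 1 just outside it, and genes outside the rule took different courses across this border. Pkd2l1 was found in 20 of the 54 cells with 2 genes and in 63.2% of all 125 cells. The step from 2 to at least 3 genes therefore overlaps the split by Pkd2l1 given below. Levels are given as CPM, molecules of a gene per 1000000 molecules summed over the cells of a group. Zcchc12, a coactivator in BMP signalling that the rule did not use, was at 24.9 CPM in cells with none of the 6 genes, 383 with 1, 1250 with 2 and 1653 with 3 or more. Gad1, the main GABA-synthesizing enzyme, was at 17.4, 209, 645 and 738 CPM in the same order. The growth-cone protein gene Gap43 was at 131, 189, 920 and 4125 CPM, and Clic5, whose product links membrane and actin in microvilli and stereocilia, at 2.07, 20.4, 124 and 502 CPM. Igfbp5, at 12137 CPM in cells with none of the genes, ran the other way with 1602, 879 and 502 CPM. Other genes had no single direction. Nkx6-1, a ventral spinal factor gene, was at 391, 250, 687 and 1107 CPM, and the factor genes Nfib (593, 1056, 1826 and 790 CPM) and Irx1 (86.6, 194, 453 and 111 CPM) were highest with 2 genes. The 117 cells with exactly 1 gene, of which 49 had Gata3, 20 Tal1, 18 Slc32a1, 15 Gata2, 14 Pkd2l1 and 1 Pkd1l2, lay between both sides for Zcchc12, Gad1 and Clic5 but were the highest of the 4 classes in keratinocyte genes. Krt5 was at 2587 CPM in them, 376 CPM in cells with none of the genes and 0 in cells with 2 or more, and Krt10 at 2868, 47.7, 82.4 and 7.38 CPM in cells with 1, 0, 2 and at least 3 genes.

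**Figure D2:**
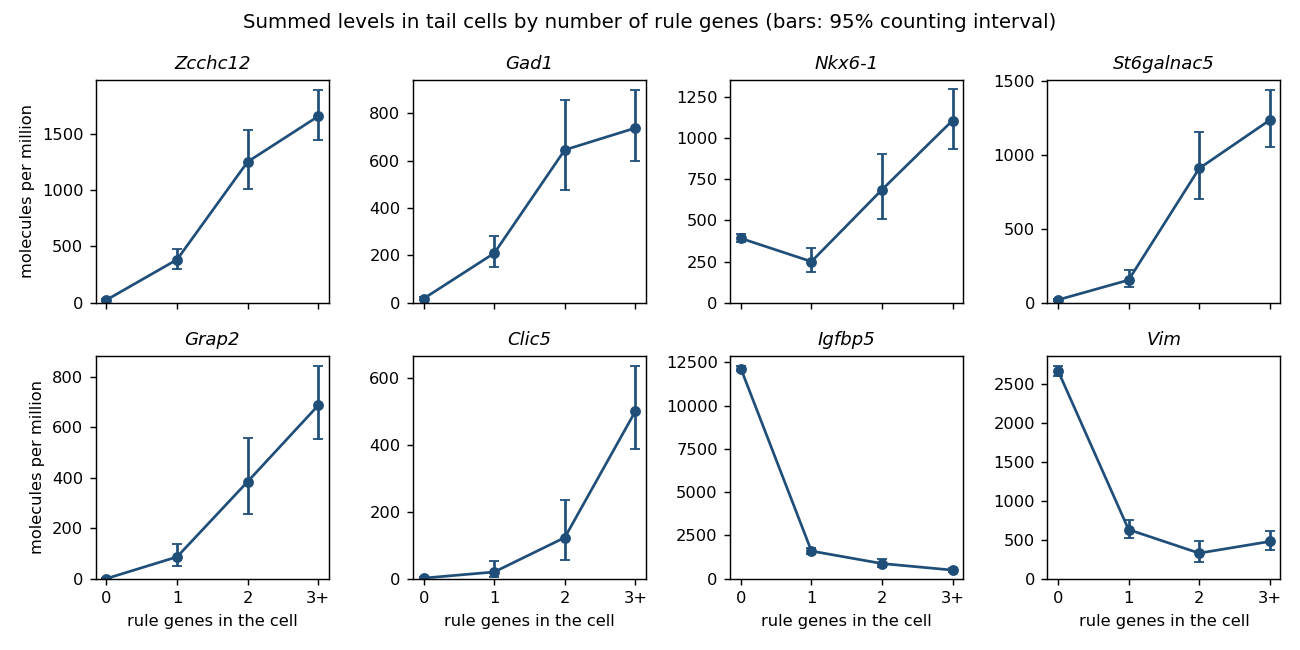
Levels of genes the rule did not use, in CPM on linear axes from 0, in tail cells with 0, 1, 2 or at least 3 of the 6 genes; points are summed counts of a group and bars are exact 95% counting intervals. Zcchc12, Gad1, St6galnac5, Grap2 and Clic5 are higher at each step, and Igfbp5 is lower at each step, from 12137 to 502 CPM.

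The label was checked against other genes known from spinal CSF-contacting neurons. Of 20 such genes outside the rule, 16 are in the files and 10 had the minimum of 50 molecules over the CSF-contacting neuron-like cells and the other tail cells. A gene is called higher or lower where the whole interval of the ratio of CPM lies beyond 2-fold. Where a group has 0 molecules, ratios given below as at least take that 0 as 3 molecules. They leave out counting error in the other group and are not exact bounds. In this comparison 4.84% of all 8231 genes counted were called higher and 6.78% lower, and the median log2 ratio over all of them was -0.09. Of the 10 genes 8 were called higher and 0 lower, with a median log2 ratio of 3.25. Tal2, a Tal-family factor of GABAergic neurons, was at 211 against 8.43 CPM (25.1-fold, 14.7 to 43.9). Espn, an actin-bundling protein of microvilli and stereocilia, was at 154 against 6.90 CPM (22.3-fold, 12.1 to 42.1). Gad1 and Gad2 were 22.2-fold and 21.8-fold higher, the neuropeptide gene Sst 9.08-fold and the migrating-neuron gene Dcx 10.0-fold. Nkx6-1 and Foxa2, factors of the ventral spinal cord and floor plate, were 2.52-fold (2.16 to 2.94) and 3.43-fold (2.06 to 5.49) higher. Sall3 (0.798-fold) was not called. Below the minimum, Nkx2-2 had 8 molecules in the CSF-contacting neuron-like cells and 14 in the other tail cells. These groups held 208323 and 2608780 molecules in all, so its level was higher in the CSF-contacting neuron-like cells. These genes were listed with earlier results of the same cells known, so the count is no independent evidence for the name. A second list, of 15 genes of primary cilia, apical processes and actin bundles, did not run the same way. Of 12 counted, 2 were called higher, Espn and the actin-bundling gene Fscn1 (4.84-fold, 4.12 to 5.68), and 3 lower, the polarity gene Crb2, the intraflagellar transport gene Ift74 and the ciliary factor gene Rfx2, with a median log2 ratio of -1.39.

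At the level of cells, 90 of the 125 had Gad1 or Gad2 (72%, 63.3 to 79.7), against 3.92% of the other tail cells and 51.1% of the Dlx-bearing brain cells. Gad1 was found in 0 of 177 fibroblast-like tail cells, which should lack it and were deeper, with a median of 1990 molecules. Zcchc12 was found in 75.2% of the CSF-contacting neuron-like cells and 4.35% of the other tail cells, and the sialyltransferase gene St6galnac5 in 70.4% and 2.88%. Zcchc12 was absent from the 177 fibroblast-like cells, and St6galnac5 was found in 1.13% of them. The sorting gene Sox1 itself was found in 50.4% of the CSF-contacting neuron-like cells against 7.02% of the other tail cells, and after thinning in 18.4% against 2.53%. All cells had passed the GFP sort, so the lack of a Sox1 molecule in a cell does not stand for the lack of the reporter. Among genes outside the rule whose thinned share most exceeded that of the other tail cells were Sox11, a factor of young neurons (68% against 14.0%), the tubulin gene Tuba1a (86.4% against 34.7%), Rtn1 (64.8% against 16.3%) and Map1b (64% against 16.8%). The kinase gene Pak3 (43.2% against 2.97%) and Gap43 (43.2% against 3.08%) were rarer in the other cells. Gap43 was found in 31.1% of the fibroblast-like cells, against 60.8% of the CSF-contacting neuron-like cells before thinning.

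Set against all other tail cells, the genes called higher in the CSF-contacting neuron-like cells were led by Clic5, at 370 against 3.45 CPM (107-fold, 53.6 to 243), and by the adaptor gene Grap2, at 581 against 7.28 CPM (79.8-fold, 48.9 to 137). Grap2 is known from T cells, and the 5 T-cell genes in the files had no molecule in the CSF-contacting neuron-like cells. Cacna2d3, an auxiliary subunit of voltage-gated calcium channels, was at 211 against 3.45 CPM (61.2-fold, 29.5 to 143). Scg2 and Chga encode granins of dense-core vesicles. Scg2 was at 734 against 19.6 CPM (37.6-fold, 27.2 to 52.6) and Chga at 1051 against 33.0 CPM (31.9-fold, 24.7 to 41.4). The vesicle protein gene Syt4 was 24.7-fold higher. St6galnac5 was at 1118.5 against 29.5 CPM (37.9-fold) and Vstm2l at 442 against 11.1 CPM (39.7-fold). Zcchc12 was at 1512 against 51.8 CPM (29.2-fold, 23.8 to 36.0), Pdzk1ip1 33.6-fold, Tcerg1l 35.4-fold and the proteoglycan gene Spock1 28.9-fold higher. Gap43 had the highest level of these genes, 3005 against 136 CPM (22.1-fold, 19.4 to 25.3).

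Transmitter genes were counted by class. Of 5 GABA genes counted 3 were called higher, Gad1 and Gad2 among them, and 0 lower, and Abat and Slc6a11 were not called. The vesicular glutamate transporters gave 9 molecules in all, every one of them Slc17a8 in 4 cells. Summed, they were at 43.2 against 36.0 CPM in the other tail cells (1.20-fold, 0.532 to 2.38). They were found in 3.2% and 2.99% of cells. The glycine transporter gene Slc6a5 gave 16 molecules against 7 in the other tail cells, below the minimum for a call. Of 2 monoamine genes counted, 1 was called higher and 1 lower. The higher one was Ddc, the decarboxylase that makes dopamine and serotonin from their precursors. Ddc was at 528 against 21.1 CPM (25.1-fold, 18.0 to 35.3) and was found in 40% of the cells, whereas Th, Tph2 and the acetylcholine gene Chat had no molecule. Pnoc, which encodes the precursor of the peptide nociceptin, was at 648 against 34.9 CPM (18.6-fold, 14.1 to 24.5) and was found in 52% of the cells.

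Genes of young neurons were called higher in 15 of 18 counted and lower in 1, with a median log2 ratio of 2.89. Stmn2, a microtubule regulator of growing axons, was at 998 against 36.8 CPM (27.1-fold), the neuronal tubulin gene Tubb3 13.1-fold and the RNA-binding protein gene Elavl3 8.55-fold higher. The exception was Nhlh1, a factor of just-born neurons, at 0 molecules against 105. Of 10 genes of mature neurons and synapses 7 were called higher, among them the calcium sensor gene Syt1 (15.3-fold, 9.63 to 24.5) and the fusion protein gene Snap25 (7.85-fold, 5.33 to 11.4), and Rbfox3, Camk2a and Vamp2 were not called. Of 9 receptor and channel genes counted, 4 were called higher, among them the acid-sensing channel genes Asic4 (27.1-fold, 16.5 to 45.4) and Asic1 (9.53-fold, 6.49 to 13.9) and the AMPA receptor gene Gria2 (4.71-fold). The GABA receptor gene Gabra2 was called lower, with 1 molecule against 398.

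Division genes stood on the other side. Of 10 cell-cycle genes 6 were called lower and 0 higher, and Mki67 or Top2a was found in 1 of the 125 cells (0.8%, 0.0203 to 4.38) against 13.6% of the other tail cells. Of the Notch genes, the ligand gene Dll1 was higher (3.50-fold, 2.31 to 5.19), and the receptor gene Notch2 (0 molecules against 231) and the target gene Hes1 (4 against 783) were lower. V2b and V2c interneurons are spinal classes that share Gata2, Gata3 and Tal1 with the rule, and of 6 further genes of these classes 2 were called higher and 0 lower, with a median log2 ratio of -0.24. Sox1 was at 432 against 56.0 CPM (7.72-fold, 5.87 to 10.1) and Lhx5 was 10.3-fold higher, while Sox2 was at 317 against 346 CPM and, like Sox21, Lmo4 and Bhlhe22, was not called. Genes of the other ventral classes and of motor neurons, 12 in the files, gave 0 molecules in the CSF-contacting neuron-like cells, and the 13 dorsal-class genes gave 8. Posterior Hox genes of groups 9 to 13, which mark the caudal body axis, were found in 85.6% of the cells against 61.0% of the other tail cells. Of 11 counted, Hoxa10 (4.96-fold, 3.60 to 6.75) and Hoxd9 (4.25-fold) were called higher, and Hoxb13 was at 240 against 293 CPM and not called.

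Markers of fibroblasts, keratinocytes, red cells and macrophages were close to 0 in the CSF-contacting neuron-like cells, and markers of cells that line the canal were lower but not all near 0. The 5 fibroblast genes gave 3 molecules against 28019, with Col1a2 at 0 against 8788 (at least 234-fold lower), Dcn at 0 against 1241 and Lum at 0, and all 5 were called lower. The 7 keratinocyte genes gave 8 molecules against 4215, with Krt5 at 0 against 1414 (at least 37.6-fold lower). The 6 red-cell genes gave 1 molecule against 2525, and the 6 macrophage genes gave 0 against 68 (26.1 CPM in the other tail cells). The receptor gene Kdr was 10.3-fold higher (5.93 to 17.6), whereas Pecam1, Cdh5, Cldn5 and Tek, which define endothelium with it, had no molecule. Gata1, Cpa3, Cma1, Tpsb2 and Mcpt4, genes of the blood and mast cells that also use Gata2, had no molecule, and Kit had 10. Cells lining the canal are the nearest neighbours of CSF-contacting neurons in the body. Their motile-cilia genes gave 6 molecules against 2621, with 6 of 8 called lower. Their glial and progenitor genes kept 247 molecules (1186 against 16787 CPM), with 6 of 7 called lower, among them Igfbp5 at 634 against 11346 CPM (17.9-fold lower) and Vim at 427 against 2521 CPM (5.90-fold lower). The metallothionein genes Mt1 (62.9-fold lower) and Mt2 (39.6-fold lower) went the same way. The dissociation genes were lower too, at 3274 against 7942 CPM in all, with Fos and Atf3 called among 8 counted, and their part in the other differences was not tested.

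In the neighbour graph, built on 20 principal components of 2000 variable genes that exclude the 6 rule genes, the CSF-contacting neuron-like cells lay next to each other. Of the 15 nearest tail cells of each such cell, 72.7% were also members, against 2.16% for the other tail cells and 6.37% of all tail cells. Most neighbours were members for 94 of the 125 cells, and 1 cell had no member among its neighbours. There were 30 other tail cells with mostly member neighbours, and 23 of these had exactly 1 of the 6 genes. The 79 cells with Pkd2l1 and the 46 without it differed in their surroundings. Neighbours of a cell with Pkd2l1 were 74.3% cells with Pkd2l1, 12.2% members without it, 9.70% cells with 1 rule gene and 3.80% remaining tail cells. Neighbours of a member without Pkd2l1 were 18.4% members with it, 30.6% members without it, 31.4% cells with 1 rule gene and 19.6% remaining tail cells. No neighbour of either kind was one of the 87 other tail neurons.

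**Figure D3:**
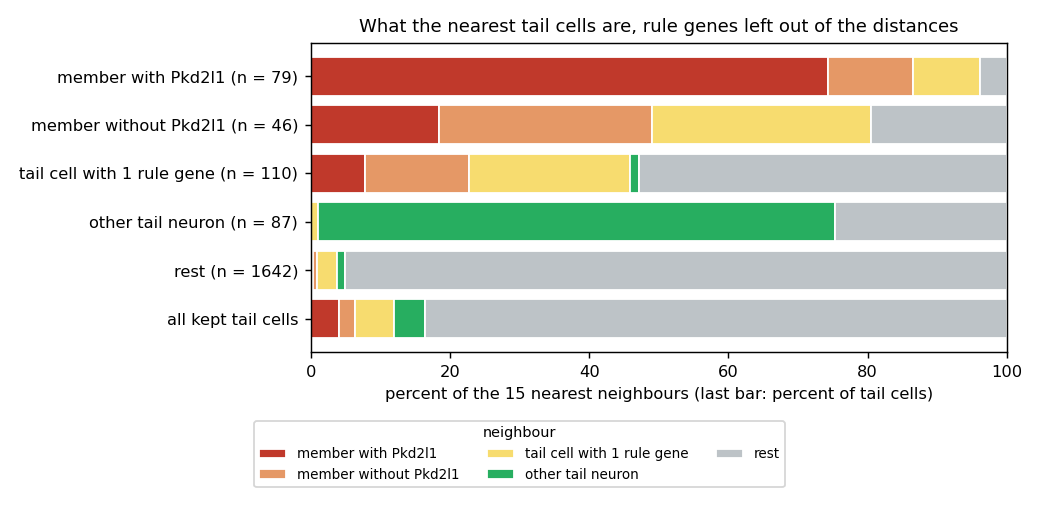
Share of the 15 nearest neighbours (percent) that fall in each class of tail cell, for CSF-contacting neuron-like cells with and without Pkd2l1, other tail neurons, tail cells with 1 rule gene and remaining tail cells. Cells with Pkd2l1 have 74.3% of their neighbours among themselves, and other tail neurons 74.2%.

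These 87 other tail neurons were chosen by at least 2 of Robo3, Nhlh1, Nhlh2 and Neurod1 and were of like depth (median 1382 molecules). They stand for neurons with these genes and not for all tail neurons. Of 275 other tail cells with Dcx, Tubb3, Stmn2 or Elavl3, 83 were among them. The contrast shows what the CSF-contacting neuron-like cells do not share with this chosen group. Of 1285 genes counted, 3.74% were called higher in the CSF-contacting neuron-like cells and 2.26% lower, with a median log2 ratio of 0.01. Gap43 was at 3005 against 48.9 CPM (61.5-fold, 28.1 to 168), and Grap2 (at least 23.8-fold), Ddc (at least 21.6-fold) and Clic5 (at least 15.1-fold) had no molecule in the other neurons. Syt4 was 38.3-fold higher with 130 molecules against 2, Scg2 22.5-fold (8.62 to 83.7) and Zcchc12 10.9-fold (6.71 to 18.97). Among factors, Sox1 was at 432 against 16.3 CPM (26.5-fold, 7.13 to 222) and Nkx6-1 was 7.36-fold higher (4.42 to 13.1). Gad1 (4.33-fold, 2.70 to 7.30) and Gad2 (3.62-fold, 2.004 to 7.10) were higher as well. Dcx, at 1637 against 1280 CPM (1.28-fold, 1.06 to 1.55), and Tubb3 (1.27-fold, 1.002 to 1.61) were not called, and of 15 genes of young neurons Gap43 and Stmn2 (3.31-fold) were the ones called.

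On the lower side the glutamate transporter gene Slc17a6 and the sensory and dorsal factor gene Pou4f1 each had 0 molecules against 56 (at least 31.7-fold lower). The dorsal factor gene Zic1 had 0 against 73 (at least 41.3-fold lower), the calmodulin-binding protein gene Nrgn 0 against 113 (at least 63.9-fold), and Nxph4 and Ebf2 had 2 molecules each against 114 and 103. Red-cell genes moved with this contrast, with Hba-a1 at 0 against 126 molecules and the 6 genes at 1 against 194 in all, and their part in the other differences was not tested. The most posterior Hox genes were lower in the CSF-contacting neuron-like cells, Hoxc13 at 57.6 against 571 CPM (9.90-fold lower, 5.33 to 20.1) and Hoxb13 at 240 against 750 CPM (3.12-fold lower, 2.19 to 4.50), and Hoxa9 and Hoxa10 were not called.

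The Dlx-bearing brain cells were a mixed group, of which 51.1% had Gad1 or Gad2 and 16.3% had Mki67 or Top2a. Of 4926 genes counted, 2.94% were called higher and 5.08% lower, with a median log2 ratio of -0.07. Gad1 was at 706 against 620 CPM (1.14-fold, 0.947 to 1.36) and Gad2 at 384 against 272 CPM (1.41-fold, 1.09 to 1.81). Stmn2 (0.801-fold, 0.689 to 0.926), Tubb3 (0.815-fold, 0.706 to 0.937) and Sox11 (0.905-fold, 0.833 to 0.983) were not called either. The counting intervals of these 5 genes lay within 2-fold. They hold for the summed molecules of 1 library each and a mixed brain group, so a 2-fold difference between cell types is not excluded. Of 5 GABA genes counted, 0 were called higher and 1 lower, the transporter gene Slc6a11 with 1 molecule against 131 (23.1-fold lower, 4.08 to 920). Of 15 young-neuron genes counted, 3 were called higher and 1 lower. They were Gap43 (14.8-fold, 12.7 to 17.2), the neurofilament-related gene Ina (13.4-fold, 11.05 to 16.3), Celf4 (2.58-fold) and, lower, Islr2 (1 molecule against 924). Syt1 (10.9-fold, 6.41 to 18.8), Snap25 (3.14-fold, 2.15 to 4.53) and Ank3, which builds the axon initial segment (5.94-fold), were the ones called higher among 8 genes of mature neurons. Asic4 had 54 molecules against 1, Asic1 was 8.76-fold higher (5.55 to 14.0) and Ddc 156-fold (59.2 to 582).

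Regional genes, and some genes of other kinds, lay far apart in counts. Nkx6-1 had 200 molecules against 0 (at least 378-fold higher), the factor gene Ebf1 117 against 0 (at least 221-fold), Grap2 121 against 0 (at least 229-fold), Clic5 77 against 0 (at least 145-fold) and Pnoc 135 against 1 (765-fold, 135 to 30451). The 16 posterior Hox genes had 308 molecules against 0, with Hoxa10 at 59 (at least 111-fold) and Hoxb13 at 50 (at least 94.5-fold). In turn Dlx6os1, a noncoding RNA gene of the Dlx locus, had 0 molecules against 1182 (at least 69.5-fold lower), and 3 of 4 forebrain genes counted were called lower. The brain cells were chosen partly by Dlx1, Dlx2 and Dlx5, so the Dlx6os1 count and these forebrain calls partly describe the choice. Division genes were lower in the CSF-contacting neuron-like cells. Ccnd2 had 5 molecules against 5026 (177-fold lower), Top2a 0 against 712 (at least 41.9-fold lower), and 8 of 10 cell-cycle genes were called lower. The imprinted growth gene H19 was at 1243 against 3.39 CPM and Xist at 144 molecules against 0, and the dissociation genes were 4.69-fold lower (4.34 to 5.07), with 6 of 7 called, beside the differences in tissue, age, sex and library named above.

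**Figure D4:**
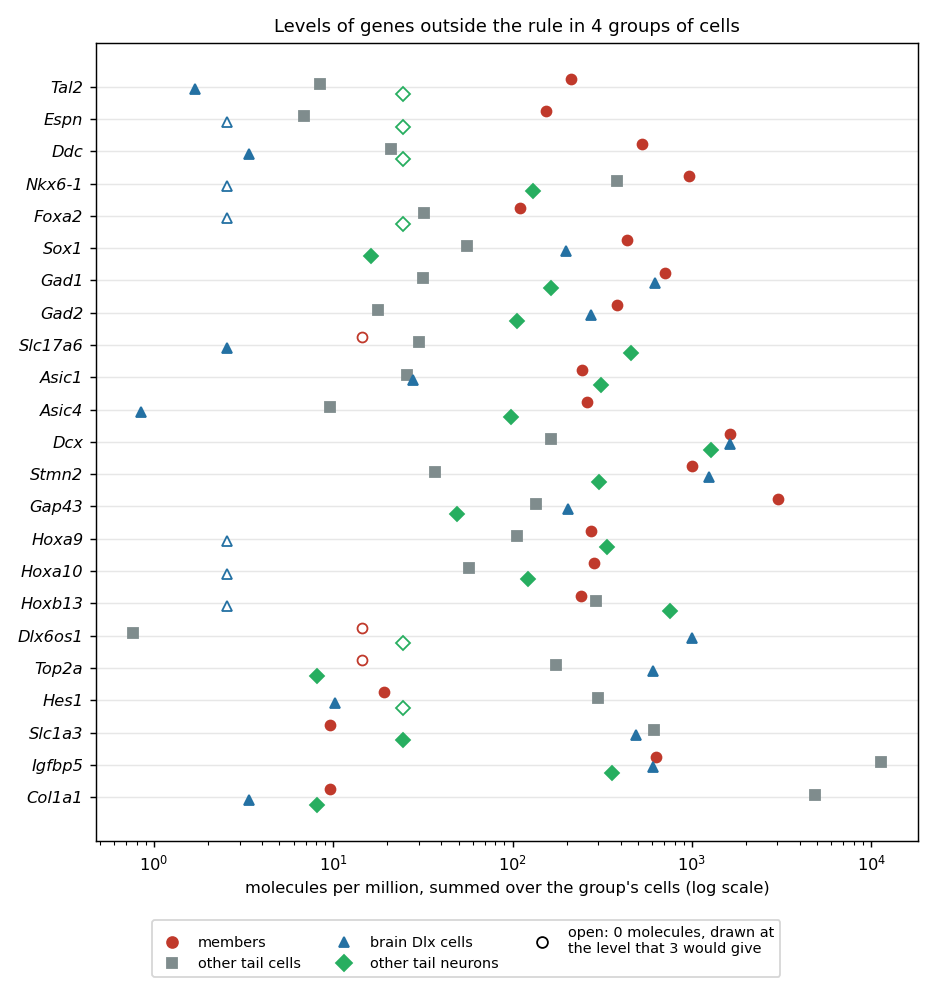
Levels in CPM on a log axis, summed over the cells of a group, in the CSF-contacting neuron-like cells (members), the other tail cells, the Dlx-bearing brain cells and the other tail neurons; open symbols are counts of 0, drawn at the level that 3 molecules would give. Gad1 lies at 706 CPM in the CSF-contacting neuron-like cells and 620 CPM in the brain cells, while Nkx6-1 lies at 960 CPM and 0.

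Within the 125 cells, those with a Pkd2l1 molecule (79) and those without one (46) were compared for genes outside the rule, with a minimum of 20 molecules. The cells with Pkd2l1 were deeper, with a median of 1738 molecules against 1385, and a missing molecule does not show that the gene was silent. Of 2183 genes counted, 0.733% were called higher with Pkd2l1 and 0.87% lower, with a median log2 ratio of 0.05. Gap43 was at 4176 against 471 CPM (8.87-fold, 6.18 to 13.2), and in the cells without Pkd2l1 its share, 28.3%, was not above that of fibroblast-like cells. Chga was at 1425 against 243 CPM (5.86-fold, 3.52 to 10.4), Clic5 at 512 against 60.8 CPM (8.43-fold, 3.16 to 31.8) and Cacna2d3 at 44 molecules against 0 (at least 6.78-fold). Nkx6-1 was at 1263 against 304 CPM (4.16-fold, 2.61 to 6.97) and Ddc at 688 against 182 CPM (3.77-fold, 2.07 to 7.55). Uchl1 (3.57-fold), the cell-cycle arrest gene Rprm (10.5-fold) and Kdr, with 27 molecules against 0 (at least 4.16-fold), were higher too.

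Another group of genes was lower in cells with Pkd2l1. The factor genes Irx1 (6 molecules against 42, 15.2-fold lower, 6.41 to 43.6), Nr4a2 (6 against 39, 14.1-fold lower, 5.91 to 40.6), Sox14 (3 against 26, 18.8-fold lower, 5.75 to 96.8) and Pou3f3 (5 against 29, 12.5-fold lower) led this group, with the growth factor gene Ptn (2 against 21). Nfib was at 554 against 2445 CPM (4.41-fold lower, 3.35 to 5.85), Sst at 42.1 against 349 CPM (8.29-fold lower, 3.28 to 24.9), and Pax6 was 4.81-fold lower (2.09 to 12.0). Sox14 was found in 15 of the 46 cells without Pkd2l1 and in 1 of the 79 with it, Irx1 in 41.3% and 5.06%, and Sst in 23.9% and 3.80%. Of the 125 cells, 14 had Sst, 16 Sox14, 16 Foxa2, 34 Tal2 and 50 Ddc. Sst and Sox14 were found together in 7 cells, and Sst was found together with Ddc, Tal2 or Foxa2 in 0. Whether 0 is fewer than these numbers of cells would give by chance was not tested. Pkd2l1, found in 63.2% of the 125 cells, accompanied 42 of 50 cells with Ddc, 30 of 34 with Tal2 and 19 of 21 with Espn. All 16 cells with Kdr, all 8 with Nkx2-2 and all 8 with Cck had it too. From the list of other genes of CSF-contacting neurons 11 were counted in this split, with 1 called higher and 2 lower. Nkx6-1 was the higher one, and Sst and Sox14 were the lower ones. Tal2 (3.60-fold, 1.42 to 11.7) and Espn (6.93-fold, 1.76 to 59.9) were not called between both kinds.

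The GABA genes did not part in this way. Gad1 was at 716 against 684 CPM (1.05-fold, 0.731 to 1.52), Gad2 at 407 against 334 CPM (1.22-fold, 0.734 to 2.09), and Dcx at 1642 against 1625 CPM (1.01-fold, 0.801 to 1.28). Gad1 or Gad2 was found in 79.7% of the cells with Pkd2l1 and 58.7% of those without. Zcchc12 (1.43-fold), Grap2 (1.77-fold, 1.13 to 2.88), Pnoc (1.49-fold, 0.992 to 2.29) and Sox1 (1.35-fold, 0.827 to 2.27) were not called either. As given above, most cells with Tal2, Espn or Ddc lay among the 79 with Pkd2l1. The 46 without it carry the name by the rule alone, and they had higher levels of Irx1, Nr4a2, Sox14, Pou3f3, Nfib, Sst and Pax6.

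**Figure D5:**
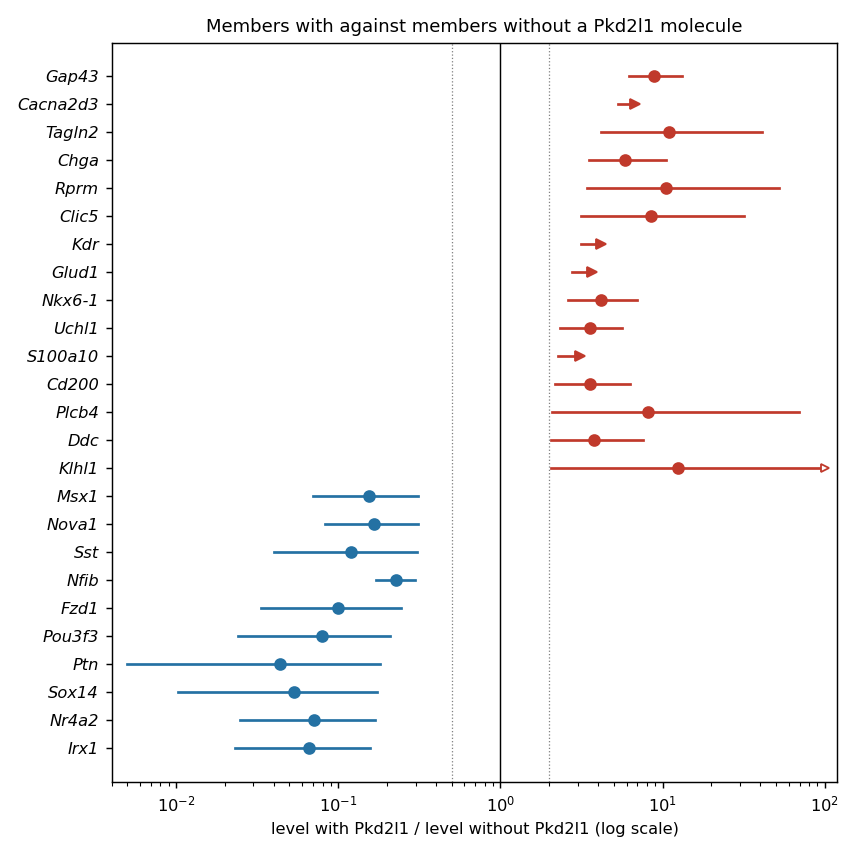
Ratio of the level in the 79 CSF-contacting neuron-like cells with Pkd2l1 to that in the 46 without it, on a log axis, for the called genes farthest apart; lines are exact 95% counting intervals, arrowheads mark bounds or intervals that run past the axis, and dotted lines mark 2-fold. Gap43 (8.87-fold), Nkx6-1 (4.16-fold) and Ddc lie to the right, and Irx1, Sox14 and Sst to the left.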

How the data were processed

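Single cells of 1 tail and 1 brain library (BD Rhapsody) were analysed. The deposited counts were molecules per cell and gene after error correction of molecular identifiers, made by the authors with the BD Rhapsody pipeline (1.10.1, GRCm38 with GENCODE M19, per the file headers), and the submitters' notes also name STAR 2.7.1a, UMI-tools 1.0.1 and featureCounts 1.6.4. Cells with over 200 and under 4000 genes and under 40% mitochondrial molecules were kept, as in the study's methods, which left 1964 of 2469 tail and 7988 of 12111 brain barcodes with 2817103 and 6424466 molecules. Kept cells held 310 to 7338 molecules in the tail and 238 to 4460 in the brain.

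Molecules were summed over the cells of a group and compared as ratios of CPM with a conditional exact binomial 95% interval, and shares of cells have Clopper-Pearson intervals. With 1 library per group no test was possible. A gene was called where at least 50 molecules (20 within the CSF-contacting neuron-like cells) were seen over both groups and the whole interval lay beyond 2-fold. Mitochondrial genes and the genes that chose a group were left out of calls. A count of 0 was taken to allow 3 molecules. Ratios given as at least rest on this and lie above the exact lower bound. For Nkx6-1 against the brain cells that bound was 304.5-fold, where the ratio given is 378-fold. The text names genes of the marker lists, the 15 called genes highest and the 10 lowest in each comparison, ranked by the interval bound nearer to 1, and the 10 genes whose share after thinning to 400 molecules most exceeded that of the other tail cells. The same ranking was used for the split by Pkd2l1, a use added after the data were seen, and any further gene was named after its values were seen. Some genes that these rules name are not reported here. The cells and the lists were chosen with earlier results of these data known. Neighbours were found with scanpy 1.11.5 and scikit-learn 1.9.0, intervals with scipy 1.17.1 in Python 3.11.15, and TMM factors with edgeR 4.0.16 in R 4.3.3 for an alternative scaling. The interval rule and the neighbour step were tested on simulated data. Gene positions are those of GENCODE M21. Of 20 alternatives, 18 were planned. They changed the molecule correction, the mitochondrial limit, the membership rule, doublets, scaling, minimum, fold, comparison cells and neighbour settings.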

Additional observations from a re-analysis of the deposited data

Results flagged for a closer look

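Pkd2l1 was also found in tail barcodes that the filters on gene number and mitochondrial share had removed and that entered no comparison. The 505 removed barcodes held 7 molecules of Pkd2l1 among 155534, or 45.0 CPM, above the 19.3 CPM that a count of 0 would allow at this depth. Of these barcodes 4 had at least 1 of the 6 genes and 1 met the rule for the CSF-contacting neuron-like cells. The kept tail cells, with 2817103 molecules, held 431 of Pkd2l1 in the CSF-contacting neuron-like cells and 42 in the others. The level was thus lower in the removed tail barcodes, and the 7 molecules came from at most 4 barcodes. The 4123 removed brain barcodes held 0 molecules of Pkd2l1 among 1037815.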

How the results depend on the processing

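No direction of 195 recomputed gene ratios of called genes was turned by any alternative, though 331 of their 2194 values under the alternatives moved out of the counting interval. These genes were called because their intervals lay beyond 2-fold, and the alternatives reuse largely the same molecules. A turned direction was therefore hardly possible, and its absence says little. The split by Pkd2l1 was not recomputed under any alternative. Of 97 recomputed shares and counts, 69 stayed within counting error or 1.5 times of the value reported. The share of tail cells that met the rule was 3.62% with at least 3 of the 6 genes (71 cells), 4.02% with Pkd2l1 and 1 other gene (79 cells) and 2.42% after thinning to 400 molecules (47 cells), and members were 66.0% of neighbours with 3 genes and 37.6% after thinning. Against other tail cells, the counts of 398 higher and 558 lower genes became 154 and 335 with a minimum of 200 molecules and 140 and 180 beyond 4-fold. There were 639 higher with no minimum, 360 lower with 3 genes and 196 lower after thinning. Against the brain cells, 145 higher and 250 lower became 25 and 111 with the minimum of 200, 65 and 92 beyond 4-fold, and, after thinning, 55 and 114, with 577 higher without a minimum. Against other tail neurons, 48 higher and 29 lower became 15 and 2 with the minimum of 200, 25 and 17 beyond 4-fold, 100 and 115 without a minimum, and 26 and 14 after thinning, with 18 lower when 3 of 4 genes chose the neurons. Other numbers of genes tested, a larger fold or fewer cells set these counts by construction. TMM or median-ratio scaling moved all ratios by at most 0.06 on the log2 scale. Leaving out shared barcodes, and leaving out other tail cells with 1 rule gene, were chosen after seeing the data. No paired analysis was possible because each group is 1 library and the labels give no replicate numbers. Depth limits the rest. With 208323 molecules, 0 counts in the CSF-contacting neuron-like cells allow up to 14.4 CPM.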
